A study of Homo sapiens with 12 samples.

Results

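RNA of 501Mel cells exposed for 48 h to 5 μM Resveratrol (RSV) together with 1 μM Vemurafenib (Vem) was compared with RNA of the same cells exposed to the DMSO vehicle. The 2 RSV+Vem and 2 vehicle libraries were chosen by their labels and are 4 of the 12 libraries of the series. The 2 libraries of 1 μM Vem alone and the 2 of 5 μM RSV alone, also at 48 h, are given beside them to place the combination. 501Mel is a single established melanoma line whose BRAF gene carries the V600E mutation, and the sources used here do not say whether the 2 libraries of a group came from separate cultures. The p-values measure the spread between libraries of a group, pooled over all 12 libraries of the series. That spread may therefore be technical. In the study RSV served as an antagonist of the aryl hydrocarbon receptor (AhR), a ligand-activated transcription factor, and the comparison asks what state the cells reach when that agent and the BRAF inhibitor Vem are given together.

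Vem blocks the mutant BRAF kinase and with it the MEK and ERK kinases, whose activity keeps ETS factors, cyclin D1 and a set of feedback phosphatases and Sprouty proteins transcribed. In pigment cells, MITF drives the genes of melanin synthesis, and BRAF inhibition is known to raise them. RSV is a plant stilbene with many reported targets. Amino acid or endoplasmic reticulum stress is sensed through ATF4, which turns on amino acid synthesis and stress genes.

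The vehicle libraries held 19841435 and 25076925 gene counts, and the RSV+Vem libraries 17631920 and 8378655, the last being the lowest of the series. The RNA integrity number (RIN) was 9.4 and 9.6 in vehicle against 8.7 and 8.6 with RSV+Vem, the lowest of the 12. Transcripts of the mitochondrial genome held 5.09% and 6.16% of gene counts in vehicle and 10.0% and 9.01% with RSV+Vem. The part of RIN, depth and mitochondrial share in the results was not tested. The melanoma markers MLANA, PMEL, TYR, DCT, SOX10, MITF and S100B were all measured in all 4 libraries, 1 of the 7 being higher with RSV+Vem, 5 lower and 1 not called. Of other cell types, 1 of 5 keratinocyte, 3 of 6 fibroblast, 2 of 5 immune and 2 of 4 endothelial markers passed the filter on low counts, and PTPRC, CD3E, PECAM1, KRT5, KRT14 and COL3A1 had at most 1 count in any of the 4 libraries. Levels are given as CPM, the counts of a gene scaled to a common library size. The summed level of the keratinocyte markers was 20.2 and 19.3 CPM in vehicle and 20.8 and 16.8 with RSV+Vem, nearly all of it KRT10. Summed fibroblast markers were at 15.7 and 12.7 CPM against 9.47 and 10.7, immune markers at 0.253 and 0.243 against 0.319 and 0.225, and endothelial markers at 0.405 and 0.202 against 1.97 and 1.91. Both endothelial markers tested, VWF and KDR, and the fibroblast marker PDGFRA were called higher, and their part in the results was not tested. In a bulk library, fewer cells of a kind and less RNA per cell cannot be told apart.

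Of 16080 genes tested, 3870 (24.1%) were higher and 3992 (24.8%) lower with RSV+Vem than with vehicle, which makes 48.9% called at an adjusted p below 0.05 (edgeR's quasi-likelihood test, p-values adjusted after Benjamini and Hochberg). The change was at least 1 on the log2 scale for 1452 (9.03%) of the higher and 960 (5.97%) of the lower genes. The values of the 2 libraries of each group did not overlap for 11680 genes (72.6%). The 24.1% higher and 24.8% lower of all genes are the shares to set beside each list count against vehicle below. For list counts against Vem alone, the shares of all genes are 19.2% higher and 18.7% lower. For those against RSV alone, they are 11.2% higher and 13.1% lower. The library sizes were scaled with TMM factors, so each fold change is relative to the bulk of genes, whose median was -0.0035 on the log2 scale. Scaling to the added ERCC spike-in RNAs instead moved that median by -0.70 and gave 273 genes higher and 3348 lower. The spike-ins held 0.0316% and 0.0310% of counts in vehicle and 0.0389% and 0.0903% with RSV+Vem, so their share differed between the 2 RSV+Vem libraries themselves. Scaling to them therefore sets these 2 libraries apart from each other for every gene. The part of that gap in the calls lost under spike-in scaling was not tested.

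**Figure D1:**
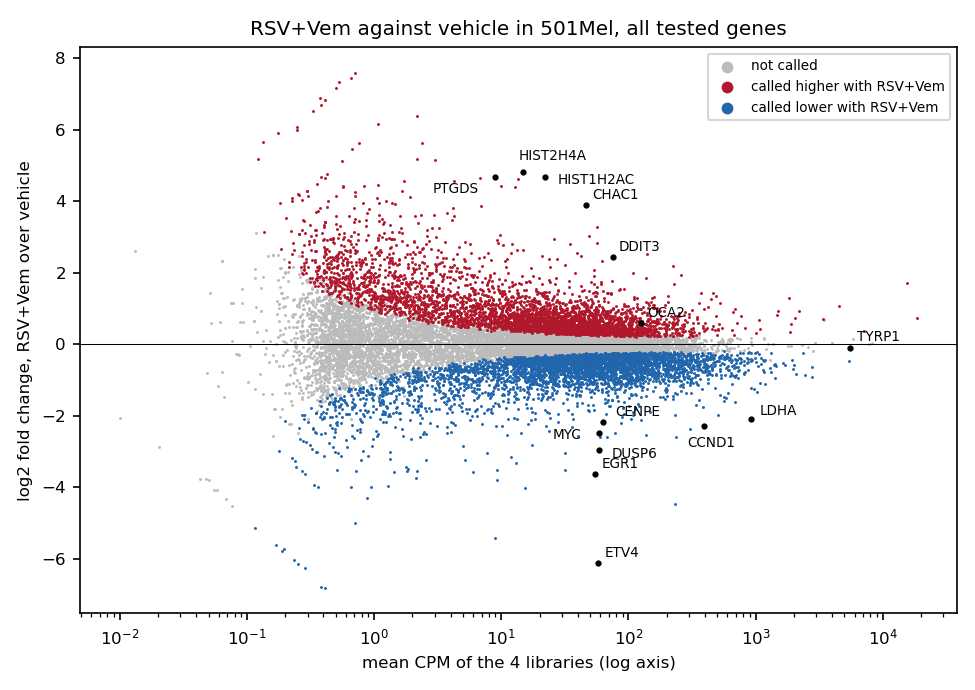
Log2 fold change of RSV+Vem over vehicle (y axis) against the mean CPM of the 4 libraries (x axis, log scale) for each of the 16080 tested genes, coloured by its call at an adjusted p below 0.05. Genes called higher (3870) and lower (3992) fill both sides, with ETV4 lowest among the named genes and TYRP1 at about 0.

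Transcripts of ERK feedback and ETS target genes were mostly lower with the combination, while ERK activity itself was not measured in these data. Of 17 tested genes of ERK feedback and ETS targets, 15 fell and 0 rose with RSV+Vem against vehicle, with a median log2 fold change of -1.91, where 24.8% of all genes were called lower. Their summed level was 2402 and 2179 CPM in vehicle and 661 and 639 CPM with RSV+Vem. The 2 members not called were EPHA4 at -0.16 and DUSP5 at 0.20.

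ETV4, an ETS-family transcription factor (chromosome 17, 41605212 to 41656988, GRCh37), was at 115 and 112 CPM in vehicle and at 1.65 and 1.57 CPM with RSV+Vem. All vehicle values were far above all combination values, and the log2 fold change was -6.12 (SE 0.16, adjusted p = 4.98e-13 by edgeR's quasi-likelihood test). Its relative ETV5 went from 411 and 393 CPM to 66.2 and 67.9 CPM, a log2 fold change of -2.59 (SE 0.10, edgeR adjusted p = 8.85e-11). DUSP6, the phosphatase that switches ERK off (chromosome 12, 89741012 to 89746278), was at 111 and 98.5 CPM in vehicle and at 14.5 and 11.9 CPM with RSV+Vem. It fell by 2.96 on the log2 scale (SE 0.17, edgeR adjusted p = 2.93e-09). CCND1, cyclin D1, fell from 644 and 667 CPM to 141 and 127 CPM (log2 fold change -2.29, SE 0.09, edgeR adjusted p = 8.85e-11). The Sprouty feedback inhibitors SPRY4 and SPRY2 fell by 2.10 and 1.91, and the stress-responsive ERK target IER3 fell by 2.49.

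The level of these genes in the combination did not stand at that of Vem alone for most of them. Against the Vem libraries, 11 of the 17 were higher with RSV+Vem and 0 lower (all genes: 19.2% higher and 18.7% lower), with a median of 1.17. Against the RSV libraries, 15 were lower and 0 higher (all genes: 13.1% lower and 11.2% higher), with a median of -1.80. DUSP6 was at 1.81 and 0.692 CPM with Vem alone and at 191 and 155 CPM with RSV alone, so that RSV+Vem stood 3.39 above Vem and 3.69 below RSV on the log2 scale. SPRY4 was at 1.67 and 0.615 CPM with Vem and at 13.8 and 13.7 CPM with RSV+Vem, 3.55 higher (edgeR adjusted p = 8.2e-08). ETV4 was at 1.11 and 0.922 CPM with Vem, and its difference from the combination, 0.66, did not pass (edgeR adjusted p = 0.11). CCND1 was at 149 and 150 CPM with Vem, with a difference of -0.15 that also did not pass (edgeR adjusted p = 0.18). The Vem, RSV and RSV+Vem groups are compared with the same 2 vehicle libraries, so their changes against vehicle are not independent of each other.

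Of 14 tested genes of the AP-1, EGR and MYC list, 6 rose and 7 fell with RSV+Vem against vehicle. Without the first RSV+Vem library 3 rose, and when scaled to the spike-ins 3 rose and 7 fell. MYC, a driver of growth and ribosome production, was at 103 and 96.7 CPM in vehicle, 15.6 and 16.4 with Vem, 26.6 and 19.2 with RSV, and 18.4 and 16.9 with RSV+Vem. It was low in all 3 treatments, and its fall against vehicle was 2.49 on the log2 scale (SE 0.14, edgeR adjusted p = 2.97e-09), while the differences of RSV+Vem from Vem (0.15) and from RSV (-0.36) did not pass. EGR1 was at 157 and 46.3 CPM in vehicle and at 9.74 and 5.85 CPM with RSV+Vem, a log2 fold change of -3.63 (SE 0.44, edgeR adjusted p = 7.48e-06), with the vehicle values far apart. FOS fell by 1.20, from 68.8 and 38.0 CPM to 24.05 and 22.04 CPM. JUN, a partner of FOS in AP-1, was at 29.0 and 12.1 CPM in vehicle and at 99.7 and 72.4 CPM with RSV+Vem, a log2 fold change of 2.09 (SE 0.33, edgeR adjusted p = 8.40e-05). JUND rose by 1.78 and JUNB by 0.92. JDP2, a partner that dimerises with JUN proteins and represses AP-1, was at 0.962 and 0.809 CPM in vehicle, 4.17 and 1.92 with Vem, 10.7 and 8.09 with RSV, and 20.3 and 17.9 with RSV+Vem, and it was higher in the combination than in any of the other 3 groups (log2 fold change against vehicle 4.44, SE 0.29, edgeR adjusted p = 1.44e-08).

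**Figure D2:**
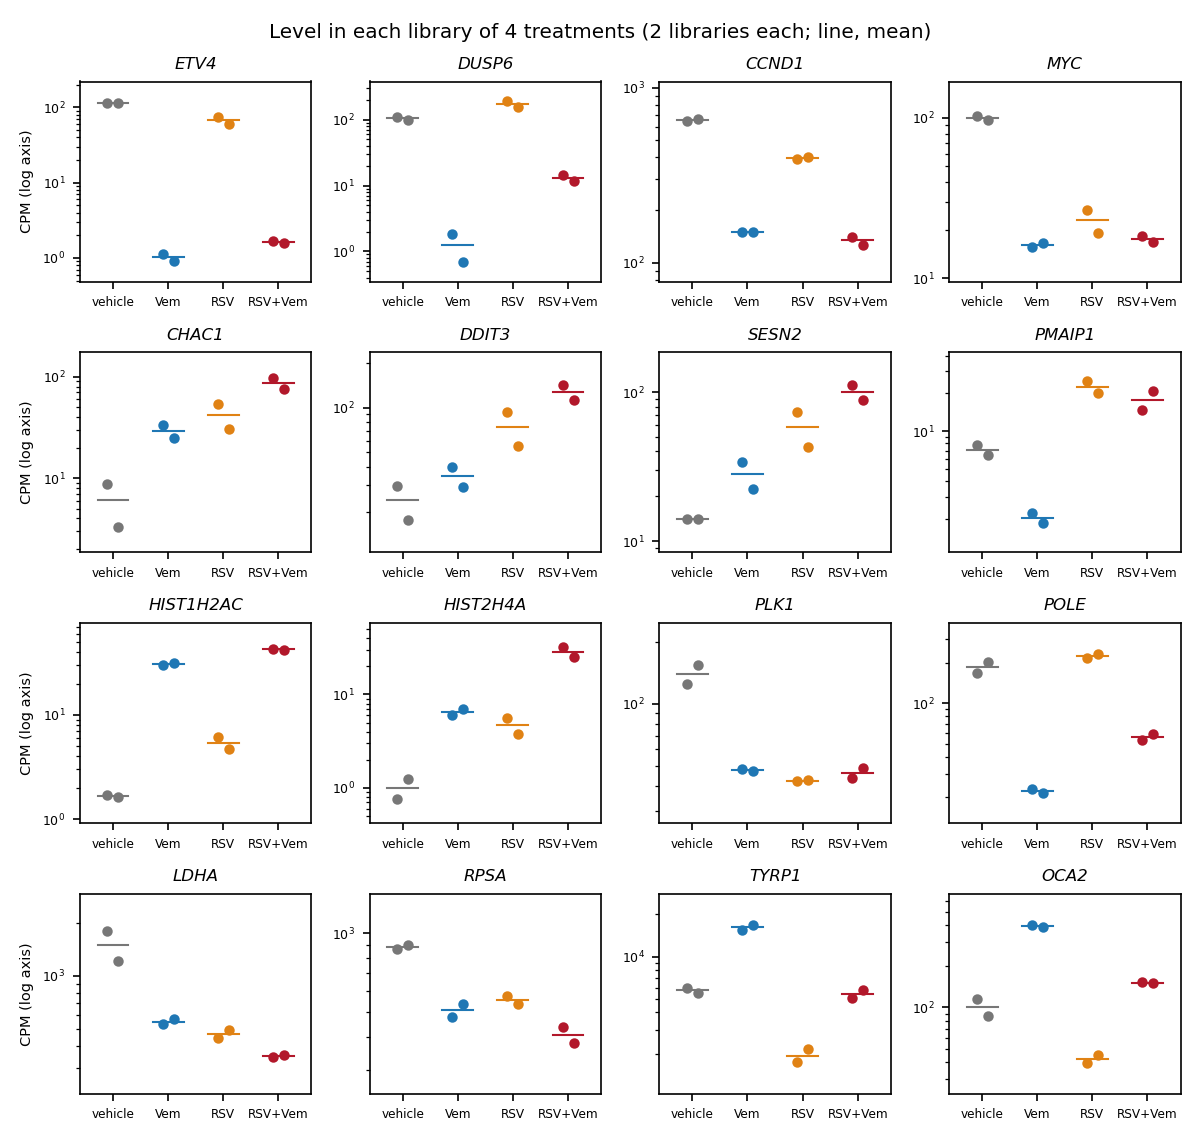
CPM (log axes) of 16 genes in each of the 2 libraries of vehicle, Vem, RSV and RSV+Vem, with the line at the mean. ETV4 and MYC with RSV+Vem sit at the level of Vem, DUSP6 and POLE lie between Vem and vehicle, CHAC1, DDIT3, SESN2 and HIST2H4A are highest with RSV+Vem, and TYRP1 is at the level of vehicle.

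Of 19 tested members of the ATF4 stress and serine synthesis list, 16 rose and 1 fell with RSV+Vem against vehicle, with a median log2 fold change of 0.98. Scaled to the spike-ins, 6 were called higher and the median was 0.30. The member that fell was VLDLR, a lipoprotein receptor, at -0.45, a count of 0 without the first vehicle or the second RSV+Vem library and of 2 without the second vehicle library, and SHMT2 and DDIT4 did not pass. Against Vem, 13 rose and 2 fell, and against RSV, 9 rose and 0 fell.

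CHAC1, an enzyme that degrades glutathione (chromosome 15, 41245160 to 41248710), was at 8.76 and 3.28 CPM in vehicle, 33.7 and 24.7 with Vem, 53.5 and 30.2 with RSV, and 98.2 and 75.6 with RSV+Vem. Both combination values were above all of the others, with a log2 fold change of 3.89 against vehicle (SE 0.33, edgeR adjusted p = 2.12e-07), 1.58 against Vem and 1.06 against RSV. DDIT3, the stress factor CHOP, was at 29.8 and 17.7 CPM in vehicle and at 141 and 112 CPM with RSV+Vem, a log2 fold change of 2.43 (SE 0.24, edgeR adjusted p = 1.03e-06). SESN2, an inhibitor of mTORC1 that senses leucine, rose from 14.1 and 14.0 CPM to 111 and 88.8 CPM, and ATF3, a stress-induced repressor of the same family, from 11.03 and 6.68 CPM to 64.1 and 58.1 CPM. Vem alone left ATF3 at 11.8 and 6.76 CPM, and RSV alone had it at 34.5 and 19.4 CPM. The transcript of ATF4 itself, which is controlled mainly at translation, rose by 0.80 on the log2 scale (373 and 338 CPM to 664 and 574 CPM).

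Most amino acid enzymes of the list were also called higher, other than SHMT2, a serine hydroxymethyltransferase, at -0.11. ASNS, asparagine synthetase, was at 52.2 and 34.3 CPM in vehicle and at 175 and 170 CPM with RSV+Vem, a log2 fold change of 2.00 (edgeR adjusted p = 1.75e-06). PHGDH, PSAT1 and PSPH, the enzymes of serine synthesis, rose by 0.45, 0.95 and 1.02, and MTHFD2, a mitochondrial folate enzyme, by 0.94. ASNSP1, a pseudogene of ASNS, was also among the largest increases, at 0.253 and 0.0809 CPM against 5.64 and 6.18 CPM, but reads of a pseudogene can come from its parent gene, so its value is uncertain. Of 34 transfer RNA synthetases, some of which ATF4 controls, 10 were higher and 13 lower, and 0 were higher and 10 lower when scaled to the spike-ins. AARS rose by 1.00, SARS by 0.77 and CARS by 0.73, whereas VARS fell by 1.47 and the mitochondrial IARS2 fell by 1.09. Endoplasmic reticulum chaperones did not rise as a group, with 3 of 16 genes of the unfolded protein response higher and 7 lower (0 and 6 when scaled to the spike-ins). HSPA5, the main chaperone of that compartment, was at 449 and 580 CPM in vehicle and 557 and 539 CPM with RSV+Vem (log2 fold change 0.09, edgeR adjusted p = 0.529). HSP90B1 fell by 1.10 and PDIA6 by 1.13, and HERPUD1 and XBP1 rose by 0.88 and 0.80.

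The core of the amino acid response element, TTGCATC, to which ATF4 dimers bind, was searched for on both strands in the 250 bases before each RefSeq gene start (GRCh38.p14). Among list members with a promoter in that table it was in 1 of 15 (6.67%), CHAC1, and among tested genes with one in 132 of 10975 (1.20%). The promoter of CHAC1 (chr15:40953221-40953470, plus strand) is printed as the only 1 of the 15 with a match. The match starts 209 bases before the gene start and is in capitals. CHAC1 was the most changed of the members named here, though the largest increase of the whole list was 3.96.
CHAC1: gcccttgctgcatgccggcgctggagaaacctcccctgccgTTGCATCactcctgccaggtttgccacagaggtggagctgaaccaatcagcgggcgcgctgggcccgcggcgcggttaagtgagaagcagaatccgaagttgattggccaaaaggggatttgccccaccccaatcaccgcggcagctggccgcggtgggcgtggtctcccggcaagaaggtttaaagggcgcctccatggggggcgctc

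Transcripts of replication histones were the list with the highest median. Replication histones package newly made DNA, and their messages normally end in a stem-loop in place of a poly(A) tail, while the libraries were made from polyadenylated mRNA. Of 89 histone genes of the list 29 were tested, of which 21 rose and 1 fell with RSV+Vem against vehicle, with a median log2 fold change of 2.39 (1.74 when scaled to the spike-ins). Their summed level was 28.3 and 29.98 CPM in vehicle, 102 and 110.2 with Vem, 60.9 and 49.96 with RSV, and 246 and 186 with RSV+Vem. Each treated group was above vehicle, and the combination was above the other 3 groups in both libraries. Against Vem, 19 of the 29 were higher and 0 lower, and against RSV, 19 were higher and 0 lower. The filter on low counts kept genes with enough counts in as few as 2 libraries. Low histone genes could therefore be tested because of the group in which they are high. The number called, the median and the sum depend in part on that filter and are a description. The RIN of the 2 RSV+Vem libraries was the lowest of the series, as given above, and its part in the histone levels was not tested.

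HIST1H2AC, now named H2AC6 (chromosome 6, 26124373 to 26139344), was at 1.72 and 1.62 CPM in vehicle, 30.4 and 31.5 with Vem, 6.21 and 4.68 with RSV, and 43.2 and 41.9 with RSV+Vem. Its log2 fold change against vehicle was 4.67 (SE 0.20, edgeR adjusted p = 2.03e-10), and against Vem it was 0.46. HIST1H2BD followed another order, with 1.52 and 0.688 CPM in vehicle, 8.48 and 8.84 with Vem, 6.63 and 4.99 with RSV, and 31.0 and 21.0 with RSV+Vem. HIST1H1C, a linker histone, was at 3.59 and 3.52 CPM in vehicle and at 25.9 and 15.0 CPM with RSV+Vem. HIST2H4A, a histone H4 gene, was at 0.759 and 1.25 CPM in vehicle and at 32.2 and 25.4 CPM with RSV+Vem, a log2 fold change of 4.81 (SE 0.26, edgeR adjusted p = 2.84e-09), and of 2.15 against Vem. Its near-identical copy HIST2H4B, and likewise HIST2H2AA3 and HIST2H2AA4, share sequence, so the division of reads within these pairs is uncertain. The 1 histone that fell was HIST2H2AC, at 5 and 17 counts in vehicle and 2 and 0 with RSV+Vem, a call that was lost without any of 3 of the 4 libraries.

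A CCAAT box, which histone promoters are known to carry (CCAAT, or ATTGG on the other strand), was in 20 of 26 promoters of the tested histone genes (76.9%) and in 3869 of 10975 promoters of tested genes (35.3%). Other lists ranged from 1 of 10 promoters of ERK feedback and ETS targets (10.0%) to 15 of 16 of the unfolded protein response (93.8%). Cholesterol genes had it in 15 of 18 (83.3%) and mitotic genes in 18 of 24 (75.0%), so the box was not particular to histones. The promoter of HIST1H2AC (chr6:26123922-26124171, plus strand) held it at 3 places, at 172, 98 and 68 bases before the gene start, in capitals.
HIST1H2AC: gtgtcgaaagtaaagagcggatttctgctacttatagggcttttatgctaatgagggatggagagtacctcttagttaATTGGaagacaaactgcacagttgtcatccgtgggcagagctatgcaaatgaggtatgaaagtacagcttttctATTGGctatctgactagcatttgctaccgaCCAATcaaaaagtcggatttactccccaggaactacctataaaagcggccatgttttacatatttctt

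Genes of cell division were lower with RSV+Vem than with vehicle. Of 30 mitotic spindle and kinetochore genes, 29 fell and 0 rose (median log2 fold change -0.83), and of 38 genes of DNA replication and nucleotide synthesis, 28 fell and 2 rose (median -0.49). Of 23 genes of homologous recombination and Fanconi repair, 13 fell and 0 rose, a count of 7 without the first RSV+Vem library. Summed mitotic genes were at 4722 and 5067 CPM in vehicle, 1381 and 1405 with Vem, 3254 and 3674 with RSV, and 2519 and 2955 with RSV+Vem. Summed replication genes were at 4499 and 5404 CPM in vehicle, 1702 and 1844 with Vem, 5226 and 5266 with RSV, and 3301 and 3433 with RSV+Vem. In both sums the combination lay between Vem and RSV, with no overlap.

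The distance from Vem was large for all 3 lists. Against Vem alone, 28 of 30 mitotic, 35 of 38 replication and 21 of 23 repair genes were higher with RSV+Vem and 0 were lower, with medians of 1.06, 1.08 and 1.15. Against RSV alone, 14 mitotic, 36 replication and 18 repair genes were lower, and 1, 0 and 0 were higher. Of all genes, 19.2% were higher than with Vem and 13.1% lower than with RSV. POLE, the leading-strand DNA polymerase, was at 169 and 203 CPM in vehicle, 23.2 and 21.7 with Vem, 216 and 234 with RSV, and 52.9 and 59.5 with RSV+Vem, and fell by 1.73 against vehicle (SE 0.11, edgeR adjusted p = 1.34e-08). PLK1, the kinase that drives entry into mitosis, took another form, with 125 and 154 CPM in vehicle, 48.1 and 47.0 with Vem, 42.1 and 42.6 with RSV, and 43.5 and 48.5 with RSV+Vem. It fell against vehicle by 1.61 (SE 0.12, edgeR adjusted p = 3.83e-08), and its differences from Vem (-0.06) and RSV (0.11) did not pass. CENPE, a kinetochore motor, was at 106 and 99.9 CPM in vehicle and at 20.5 and 25.5 CPM with RSV+Vem, a fall of 2.18. CDT1, which licenses replication origins, and TK1, thymidine kinase, were the 2 replication genes that rose against vehicle, each by 0.52 (and without the second vehicle library 4 rose). FOXM1, a transcription factor of mitotic genes, was at 101 and 110 CPM in vehicle and 93.0 and 108 CPM with RSV+Vem (log2 fold change -0.07, edgeR adjusted p = 0.603).

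The letters TTTGAA, the core of the cell cycle homology region bound by repressor complexes in quiescent cells, were in 14 of 24 promoters of the mitotic genes (58.3%) and 944 of 10975 promoters of tested genes (8.60%), and in 1 of 34 replication promoters (2.94%). The E2F letters GGCGGGA were in 14 of 34 replication promoters (41.2%) and in 22.2% of those of tested genes. The promoter of PLK1 (chr16:23678639-23678888, plus strand) is shown as a mitotic example, with a CCAAT box at 73 and TTTGAA at 29 bases before the gene start in capitals.
PLK1: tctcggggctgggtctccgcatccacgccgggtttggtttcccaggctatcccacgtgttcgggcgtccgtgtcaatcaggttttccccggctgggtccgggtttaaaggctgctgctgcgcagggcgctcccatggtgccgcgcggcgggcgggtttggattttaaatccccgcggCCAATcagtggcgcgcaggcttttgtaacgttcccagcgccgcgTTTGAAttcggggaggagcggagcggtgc

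Regulators of the G1 phase were mixed, with 3 of 20 higher and 7 lower (2 and 5 when scaled to the spike-ins). The share called was close to the 48.9% of all genes. CDK6, a kinase partner of cyclin D1, fell by 1.35, from 84.3 and 68.3 CPM to 27.1 and 33.2 CPM. CDKN2B, the inhibitor p15, was at 4.50 and 4.57 CPM in vehicle, 5.42 and 7.38 with Vem, 40.2 and 32.4 with RSV, and 19.4 and 16.9 with RSV+Vem (log2 fold change against vehicle 2.01, SE 0.17, edgeR adjusted p = 2.16e-07). CDKN1A, the inhibitor p21, named here after its values were seen, was called higher at 1 and 1 counts in vehicle and 22 and 9 counts with RSV+Vem, a very low level throughout.

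Of 23 tested targets of p53, 9 were higher and 4 lower (median 0.18), a share called not far from the 48.9% of all genes. Scaled to the spike-ins, 3 were higher and 4 lower, with a median of -0.54. TP53I3, a quinone oxidoreductase, was at 0.455 and 0.607 CPM in vehicle and at 5.05 and 5.40 CPM with RSV+Vem, a log2 fold change of 3.25 (SE 0.28, edgeR adjusted p = 2.45e-07). BTG2, an antiproliferative factor, rose by 1.48. Among classical targets, MDM2 and GDF15 fell, by 0.57 and 0.94. BAX, at 44.7 and 53.6 CPM in vehicle and 45.0 and 38.8 CPM with RSV+Vem, did not pass. CDKN1A, also a classical target, had the largest increase of the list, 4.43, at the very low counts given above. With a change of at least 1 on the log2 scale, 6 members were called higher and 1 lower. GDF15 was at 239 and 130 CPM in vehicle against 110 and 81.2 CPM, and its call was lost without the first vehicle or the second RSV+Vem library.

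In the BCL2 family, which sets the threshold of mitochondrial apoptosis, 9 of 16 genes rose and 3 fell, with a median log2 fold change of 0.57. Scaled to the spike-ins, 0 rose and 2 fell, with a median of -0.13. The 5 largest increases were all of BH3-only genes, whose products promote apoptosis, while BID of the same class fell by 0.62. BIK had the largest, 1.93, and was named after its values were seen. HRK was at 12.8 and 12.6 CPM in vehicle and 43.0 and 38.2 CPM with RSV+Vem (log2 fold change 1.68, SE 0.16, edgeR adjusted p = 6.51e-07). BMF was at 12.2 and 11.8 CPM in vehicle, 19.3 and 18.1 with Vem, 21.3 and 19.8 with RSV, and 34.2 and 31.7 with RSV+Vem, higher in the combination than in each of the other 3 groups. BCL2L11, the gene of BIM, rose by 0.89. PMAIP1, the gene of NOXA, was at 7.69 and 6.43 CPM in vehicle, 2.23 and 1.84 with Vem, 24.9 and 20.1 with RSV, and 14.7 and 21.0 with RSV+Vem. With the combination it stood 1.31 above vehicle (SE 0.19, edgeR adjusted p = 3.45e-05) and 3.10 above Vem, and its difference from RSV did not pass. Among genes that protect from apoptosis, BCL2 rose by 0.64, BCL2A1, a melanocyte-lineage survival gene, fell by 0.69, and MCL1 was at 200 and 200 CPM in vehicle and 190 and 204 CPM with RSV+Vem.

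Of 20 genes of melanin synthesis and the melanosome, which make and store the pigment, 4 rose and 7 fell with RSV+Vem against vehicle, with a median log2 fold change of -0.06. Scaled to the spike-ins, 0 rose and 6 fell, with a median of -0.78. The summed level was 23660 and 22464 CPM in vehicle, 54008 and 57587 with Vem, 13605 and 15165 with RSV, and 22796 and 24296 with RSV+Vem. Vem was far above and RSV below vehicle, and the ranges of the combination and of vehicle overlapped. Against Vem, 19 of the 20 were lower and 0 higher (median -0.89), and against RSV, 13 were higher and 1 lower (median 0.35).

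TYRP1, a melanosomal oxidase (chromosome 9, 12685439 to 12710285), was at 5948 and 5511 CPM in vehicle, 15551 and 16729 with Vem, 1752 and 2170 with RSV, and 5023 and 5731 with RSV+Vem. The combination overlapped vehicle (log2 fold change -0.09, SE 0.11, edgeR adjusted p = 0.527) and lay 1.59 below Vem and 1.46 above RSV. PMEL, the fibril protein of the melanosome, was at 7860 and 7862 CPM in vehicle, 21053 and 22338 with Vem, 5811 and 5699 with RSV, and 7991 and 7711 with RSV+Vem. OCA2, a melanosomal transporter (chromosome 15, 28000021 to 28344461), was at 116 and 86.0 CPM in vehicle, 404 and 390 with Vem, 39.2 and 44.6 with RSV, and 155 and 150 with RSV+Vem. It stayed 0.59 above vehicle (SE 0.12, edgeR adjusted p = 0.00054), a difference that became -0.089 when scaled to the spike-ins, and it was 1.38 below Vem and 1.86 above RSV.

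Other members departed from vehicle in both directions. DCT, the tautomerase of the eumelanin pathway, rose by 0.70, from 2687 and 2508 CPM to 3757 and 4674 CPM. The transporters SLC24A5 and SLC45A2 fell by 1.27 and 0.85, to the level of RSV alone (113 and 116 CPM against 95.7 and 125 CPM for SLC24A5, 464 and 475 CPM against 459 and 506 CPM for SLC45A2). MC1R, the receptor for the melanocyte-stimulating hormone, was at 6.43 and 6.23 CPM in vehicle and 2.08 and 2.36 CPM with RSV+Vem, a fall of 1.53. MITF itself was at 1197 and 939 CPM in vehicle, 1216 and 1260 with Vem, 457 and 633 with RSV, and 733 and 851 with RSV+Vem. Its fall of 0.43 against vehicle passed (SE 0.14, edgeR adjusted p = 0.0199) but not without the first vehicle or the first RSV+Vem library. TFAP2A, a lineage factor that works with MITF, was at 208 and 188 CPM in vehicle, 524 and 490 with Vem, 73.8 and 80.8 with RSV, and 272 and 261 with RSV+Vem, which was 0.43 above vehicle and, scaled to the spike-ins, -0.25. It belongs to 13 tested regulators of the melanocyte lineage and phenotype, of which 4 rose and 4 fell, with 2 lower without the first vehicle library, 1 without either RSV+Vem library, and 0 higher and 2 lower when scaled to the spike-ins.

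The M-box TCATGTG, to which MITF binds, was in 5 of 15 promoters of the tested melanin genes (33.3%), those of TYR, TYRP1, SLC24A5, GPR143 and GPNMB, and in 165 of 10975 promoters of tested genes. Their changes against vehicle differed, from -1.27 for SLC24A5 to 0.68 for GPNMB. Motifs did not mark every list named after their factor. The ETS site CCGGAAG was in 0 of 10 promoters of ERK feedback and ETS targets (tested genes: 15.6%). The xenobiotic response element was in 1 of 12 AhR list promoters (8.33%; tested genes: 5.95%). The antioxidant response element was in 4 of 15 NRF2 list promoters (26.7%; tested genes: 12.2%). The promoter of TYRP1 (chr9:12693135-12693384, plus strand) is printed with its M-box, which starts 145 bases before the gene start, in capitals.
TYRP1: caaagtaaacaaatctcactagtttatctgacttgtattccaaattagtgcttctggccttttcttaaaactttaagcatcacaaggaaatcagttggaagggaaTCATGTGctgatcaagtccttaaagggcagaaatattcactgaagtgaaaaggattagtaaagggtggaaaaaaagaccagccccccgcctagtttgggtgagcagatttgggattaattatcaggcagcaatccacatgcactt

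**Figure D3:**
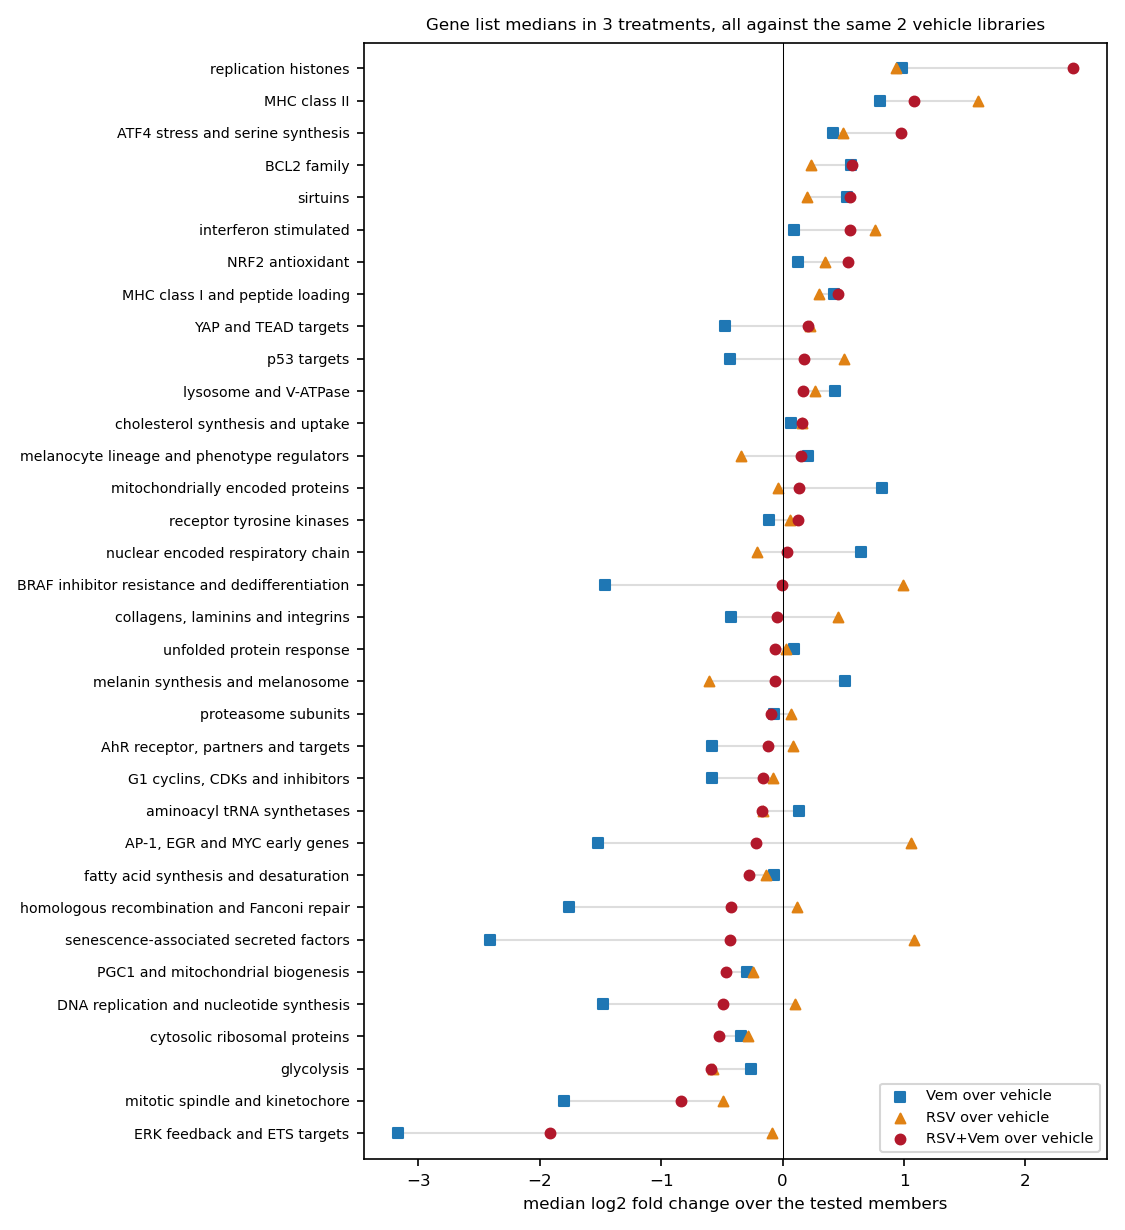
Median log2 fold change over the tested members of 34 gene lists for Vem (squares), RSV (triangles) and RSV+Vem (circles), each against the same 2 vehicle libraries, so that the 3 series are not independent. RSV+Vem lies between the other treatments for the melanin list (-0.06 between 0.51 and -0.61) and beyond both for replication histones (2.39 beside 0.98 and 0.93). Scaling to the spike-ins shifts the medians of RSV+Vem by about the -0.70 of all genes, which turns those between 0 and 0.57 negative.

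The aryl hydrocarbon receptor pathway is the intended target of RSV here. Of 14 tested genes of the receptor, its partners and targets, 3 rose and 4 fell, a share called that is close to the 48.9% of all genes, and 0 rose and 3 fell when scaled to the spike-ins. Only 1 rose without the second vehicle library or either RSV+Vem library, and 2 fell without the first RSV+Vem library. CYP1A1, the classical target that metabolises aromatic hydrocarbons (chromosome 15, 75011883 to 75017877), was at 23.5 and 23.1 CPM in vehicle, 13.6 and 12.4 with Vem, 69.0 and 67.5 with RSV, and 22.2 and 28.1 with RSV+Vem. The combination overlapped vehicle (log2 fold change 0.09, SE 0.13, edgeR adjusted p = 0.569, and -0.65 when scaled to the spike-ins) and lay 0.94 above Vem and 1.46 below RSV. AHR was at 55.0 and 58.3 CPM in vehicle, 19.5 and 18.6 with Vem, 80.2 and 80.4 with RSV, and 46.0 and 56.3 with RSV+Vem, a difference of -0.16 from vehicle that did not pass (edgeR adjusted p = 0.257). AHRR, the repressor that the receptor itself induces, rose by 0.80, from 24.6 and 21.1 CPM to 43.7 and 35.1 CPM. TIPARP, a target that modifies the receptor, rose by 0.35, a call that was lost without the second vehicle library or either RSV+Vem library, and CYP1B1, below 1 CPM in all of these libraries, did not pass.

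Genes tied to BRAF inhibitor resistance and dedifferentiation were few and mostly low. Of 13 tested members, 4 rose and 4 fell against vehicle. Without the first RSV+Vem library 2 rose and 2 fell, while 2 rose and 4 fell when scaled to the spike-ins. Against Vem, 7 were higher and 0 lower (all genes: 19.2% and 18.7%), with a median of 1.77. Against RSV, 2 were higher and 4 lower (all genes: 11.2% and 13.1%), with a median of -0.61. AXL, NRP1 and PDGFRB were below the filter, and EGFR was at 3 and 5 counts in vehicle and 4 and 1 counts with RSV+Vem. NGFR, a neural crest receptor, rose by 2.80 at 8 and 0 counts in vehicle and 28 and 9 counts with RSV+Vem, and TNC, an extracellular matrix protein, was called lower at 11 and 18 counts against 1 and 0. These 2 genes were named after their values were seen. SLIT2, a guidance factor, rose by 1.17, and the collagen receptor subunit ITGA1 fell by 1.31. Among receptor tyrosine kinases, 8 of 18 rose and 3 fell, but 2 rose and 4 fell when scaled to the spike-ins. IGF1R, the insulin-like growth factor receptor, fell by 1.02, from 261 and 204 CPM to 115 and 114 CPM, and ERBB2 rose by 1.03, from 9.87 and 7.65 CPM to 18.1 and 17.5 CPM.

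Of 23 tested glycolysis genes, 15 fell and 0 rose with RSV+Vem against vehicle, with a median log2 fold change of -0.59. That median was -0.32 without the first vehicle library and -0.81 without the second. LDHA, lactate dehydrogenase (chromosome 11, 18416107 to 18429972), was at 1794 and 1210 CPM in vehicle, 533 and 568 with Vem, 444 and 495 with RSV, and 348 and 354 with RSV+Vem. It was lowest in the combination, with a fall of 2.10 against vehicle (SE 0.14, edgeR adjusted p = 1.34e-08). HK2, hexokinase, was at 349 and 120 CPM in vehicle and at 40.1 and 40.0 CPM with RSV+Vem, a fall of 2.55. PDK1, a kinase that inhibits pyruvate dehydrogenase, was at 101 and 36.7 CPM in vehicle and 11.2 and 12.0 CPM with RSV+Vem. The glucose transporter SLC2A1 was at 1181 and 484 CPM against 311 and 283 CPM. For these genes the 2 vehicle libraries differed by up to several fold, and both were above both RSV+Vem libraries. STC1, a hypoxia-responsive secreted factor, had the widest gap, with 31.9 and 3.07 CPM in vehicle and 0.479 and 0.225 CPM with RSV+Vem.

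Vem alone raised 68 of 78 tested genes of the nuclear encoded respiratory chain (all 16080 genes: 4082 higher and 4341 lower). With RSV+Vem the respiratory chain genes were near vehicle, with 18 higher, 12 lower and a median of 0.04. Without the first RSV+Vem library 10 were higher, and leaving out any 1 of the 4 libraries left 5 to 8 lower. Scaled to the spike-ins, 0 were higher and 5 lower. Against Vem, 65 of the 78 were lower and 0 higher. Of 13 mitochondrially encoded proteins, 4 rose and 1 fell against vehicle (0 and 1 when scaled to the spike-ins), and 2 rose without the first vehicle or the first RSV+Vem library. MT-CO1, a subunit of cytochrome oxidase, was at 13147 and 14845 CPM in vehicle, 33856 and 29229 with Vem, 19061 and 21019 with RSV, and 23947 and 22622 with RSV+Vem. PPARGC1B, a coactivator of mitochondrial biogenesis, fell by 1.77, and 3 of the 16 tested genes of its list rose and 9 fell (0 and 7 when scaled to the spike-ins).

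Of 18 genes of fatty acid synthesis and desaturation, 7 fell and 3 rose, a share called not far from the 48.9% of all genes. Without the first RSV+Vem library 4 were lower, and 6 were lower and 0 higher when scaled to the spike-ins. FASN, fatty acid synthase, fell by 1.46, from 270 and 384 CPM to 122 and 116 CPM, and ELOVL6, an elongase, by 1.39. Of 24 genes of cholesterol synthesis and uptake, 8 rose and 2 fell, with 1 and 1 when scaled to the spike-ins. Without the first vehicle library 5 were higher and 5 lower, and without another 0 or 1 were lower. TM7SF2, a sterol reductase, was at 5.67 and 6.96 CPM in vehicle, 33.6 and 35.3 with Vem, 26.0 and 21.4 with RSV, and 33.9 and 37.1 with RSV+Vem, an increase of 2.48 (SE 0.15, edgeR adjusted p = 6.97e-09).

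Cytosolic ribosomal protein genes fell together. Of 80 tested, 68 fell and 0 rose with RSV+Vem against vehicle, with a median log2 fold change of -0.52. Their summed level was 52745 and 51985 CPM in vehicle, 40097 and 44105 with Vem, 43700 and 41672 with RSV, and 37855 and 34882 with RSV+Vem, the lowest of the 4 groups in both libraries. Against Vem, 28 were lower and 2 higher (all genes: 18.7% and 19.2%). Against RSV, 37 were lower and 0 higher (all genes: 13.1% and 11.2%). RPSA, a protein of the small subunit, was at 872 and 903 CPM in vehicle and at 436 and 379 CPM with RSV+Vem, a fall of 1.12 (SE 0.09, edgeR adjusted p = 1.58e-07). RPS7 fell by 0.91, from 912 and 887 CPM to 451 and 505 CPM. Many of these genes have processed pseudogenes, which can take part of their reads. Proteasome subunits, another set of housekeeping genes, had 4 of 37 higher and 5 lower, with 2 higher without the first vehicle or first RSV+Vem library and 3 lower without the second vehicle or first RSV+Vem library, and 0 higher and 3 lower when scaled to the spike-ins.

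**Figure D4:**
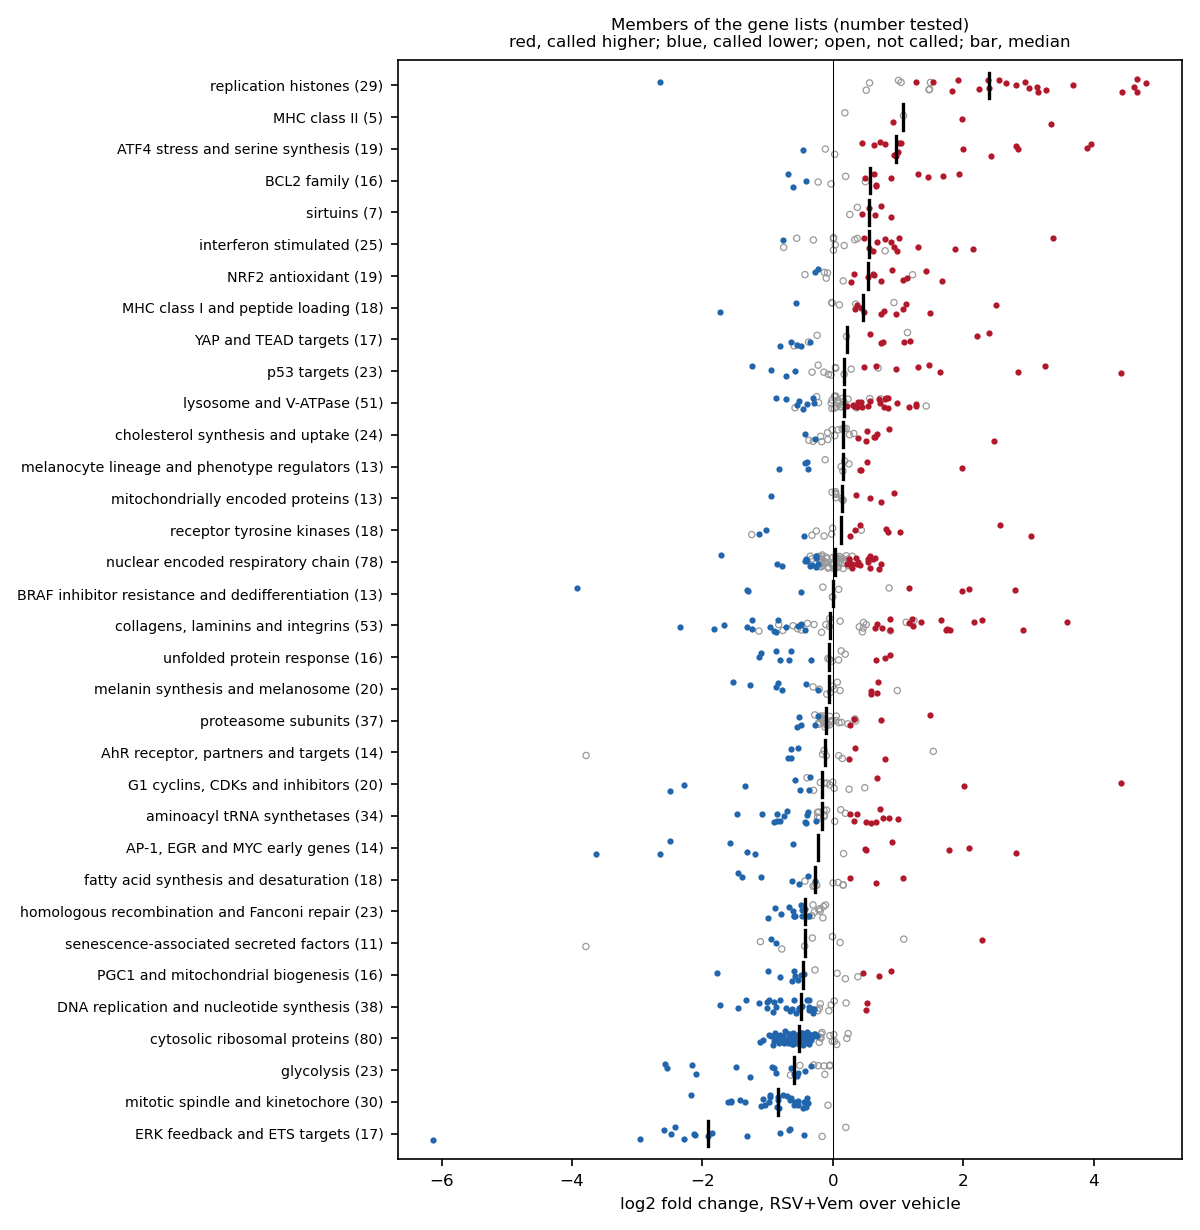
Log2 fold change of RSV+Vem over vehicle for every tested member of the 34 gene lists, ordered by their median (bar), with the number tested in parentheses. Red points were called higher, blue points lower and open points not called. Nearly all ribosomal protein (68 of 80) and mitotic genes (29 of 30) are blue, replication histones are mostly red (21 of 29), and lists in the middle hold both. Scaling to the spike-ins moves all lists to the left by about 0.70.

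Of 19 NRF2 antioxidant genes, 11 rose and 2 fell with RSV+Vem (median 0.54), and none was called in either direction when scaled to the spike-ins (median -0.19). The 2 lower calls were both lost without either RSV+Vem library, and 1 was left without the first vehicle library. HMOX1, heme oxygenase, was at 29.0 and 29.3 CPM in vehicle, 46.8 and 42.3 with Vem, 75.4 and 51.0 with RSV, and 103 and 82.2 with RSV+Vem, with a log2 fold change of 1.68 (SE 0.16, edgeR adjusted p = 7.12e-07). FTH1, the heavy chain of the iron store ferritin, rose from 2929 and 2845 CPM to 6341 and 5900 CPM. NQO1, a target shared by NRF2 and AhR, was at 287 and 300 CPM in vehicle and 261 and 288 CPM with RSV+Vem and did not pass. Of 51 genes of the lysosome and its proton pump, 20 rose and 8 fell (median 0.17; 0 and 6 with a median of -0.53 when scaled to the spike-ins). Without the first vehicle or the first RSV+Vem library 5 were lower. The share of lysosome genes called in either direction was not far from the 48.9% of all genes. CTSD, cathepsin D, rose by 1.28, from 273 and 247 CPM to 635 and 627 CPM, and TFE3, a transcription factor of lysosomal genes, by 0.99. Of 7 sirtuins, the deacylase family often linked with RSV, 5 rose and 0 fell (median 0.55), and none was called in either direction when scaled to the spike-ins (median -0.12). SIRT1 was at 25.8 and 27.7 CPM in vehicle, 20.3 and 23.6 with Vem, 33.7 and 33.0 with RSV, and 42.0 and 48.0 with RSV+Vem, higher in the combination than in each of the other 3 groups.

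Of 25 tested interferon stimulated genes, 13 rose and 1 fell (median 0.55), with 2 higher and 1 lower and a median of -0.10 when scaled to the spike-ins. Of 18 genes of MHC class I and peptide loading, 11 rose and 2 fell (median 0.46), with 0 higher and 2 lower and a median of -0.22 when scaled to the spike-ins. IRF1, an interferon regulatory factor, was at 1.57 and 2.23 CPM in vehicle, 0.765 and 1.46 with Vem, 7.596 and 4.57 with RSV, and 9.74 and 6.97 with RSV+Vem, a log2 fold change of 2.15 (SE 0.29, edgeR adjusted p = 1.82e-05). HLA-B was at 25.9 and 21.8 CPM in vehicle, 25.7 and 26.3 with Vem, 54.9 and 45.1 with RSV, and 52.8 and 47.9 with RSV+Vem, with the combination at the level of RSV. ERAP2, a peptidase that trims peptides for MHC class I, fell by 1.73. HCP5, a transcript from the MHC class I region, was at 0.0506 and 0.162 CPM in vehicle and 4.74 and 3.82 CPM with RSV+Vem (log2 fold change 5.196, SE 0.41, edgeR adjusted p = 8.61e-08). Of 11 MHC class II genes 5 were tested, 3 of which rose and 0 fell, with HLA-DPA1 at 1.37 and 0.931 CPM in vehicle and 4.95 and 3.82 CPM with RSV+Vem. Only 11 of 21 senescence-associated secreted factors passed the filter on low counts, and of these 1 rose, IL8, and 2 fell, GDF15 and TNFAIP3. Without either vehicle library 2 rose, and 1 fell without the first vehicle or the second RSV+Vem library.

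Of 53 tested collagens, laminins and integrins, 17 rose and 15 fell (all genes: 24.1% higher and 24.8% lower). Without the first RSV+Vem library 11 were higher, and 2 were higher and 15 lower when scaled to the spike-ins. ITGA2 fell by 1.66, from 14.6 and 14.2 CPM to 4.63 and 4.39 CPM, and COL19A1, a collagen, by 1.82. ITGAX, an integrin chain better known from myeloid cells, was at 3.59 and 3.84 CPM in vehicle, 8.07 and 6.84 with Vem, 29.8 and 26.3 with RSV, and 11.8 and 11.7 with RSV+Vem. Of 17 YAP and TEAD targets and regulators, 7 rose and 5 fell (2 and 4 when scaled to the spike-ins), the latter 3 without the first vehicle and 2 without the first RSV+Vem library. AMOTL2, an angiomotin that YAP induces, was at 10.4 and 7.32 CPM in vehicle, 20.3 and 16.3 with Vem, 22.3 and 16.8 with RSV, and 52.1 and 40.4 with RSV+Vem, an increase of 2.401 (SE 0.20, edgeR adjusted p = 1.49e-07). TGFB2, a growth factor of the TGF-beta family, was at 17.8 and 9.59 CPM in vehicle, 71.1 and 83.5 with Vem, 10.1 and 15.2 with RSV, and 24.4 and 38.6 with RSV+Vem.

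The largest single increases against vehicle came from genes with little or no signal there. SLAMF7, an immune cell receptor, had 3 and 1 counts in vehicle against 101 and 36, a ratio of 55.0 (95% exact counting interval 21.0 to 205, which covers counting error only), and 226 and 243 counts with RSV alone. FUT3, a fucosyltransferase, was at 1.37 and 0.971 CPM in vehicle, 0.904 and 0.384 with Vem, 23.1 and 17.9 with RSV, and 24.1 and 24.6 with RSV+Vem (log2 fold change 4.39, SE 0.25, edgeR adjusted p = 3.76e-09). PTGDS, a prostaglandin synthase, took the opposite source, with 0.658 and 0.647 CPM in vehicle, 19.2 and 19.8 with Vem, 1.99 and 1.52 with RSV, and 16.7 and 17.5 with RSV+Vem (log2 fold change 4.69, SE 0.21, edgeR adjusted p = 2.12e-10). FUT3 differed from RSV by 0.25 and PTGDS from Vem by -0.19 on the log2 scale, and neither difference passed. Among the largest decreases beside ETV4, STC1 and EGR1 were APOLD1, an endothelial early-response gene, at 640 and 254 CPM in vehicle and 17.8 and 23.3 CPM with RSV+Vem, TRIM48 at 28.1 and 30.4 CPM against 1.97 and 1.46 CPM, and MIR17HG, the host transcript of a microRNA cluster induced by MYC, at 3.54 and 4.41 CPM against 0.266 and 0.337 CPM.

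Genes beyond every other group were few. In all 3 tests, against vehicle, Vem and RSV, 190 genes (1.18%) were higher with RSV+Vem and 280 (1.74%) lower, and since the 3 tests share the RSV+Vem libraries they are not independent. Without the first RSV+Vem library the counts were 77 higher and 124 lower, and without the second Vem library 104 and 185. The named genes with the largest margin among the increases were the histone genes HIST2H4A, HIST2H4B, HIST2H2AA3 and HIST2H2AA4 and KRCC1, a little-studied coiled-coil protein. KRCC1 was at 0.557 and 0.769 CPM in vehicle, 1.95 and 2.00 with Vem, 1.93 and 1.68 with RSV, and 7.18 and 7.98 with RSV+Vem (log2 fold change against vehicle 3.47, SE 0.27, edgeR adjusted p = 9.88e-08). HIST2H2AA3 and HIST2H2AA4 lost their calls against Vem and against RSV without the first RSV+Vem library. Of the decreases, SLC5A4, a glucose sensor of the sodium-coupled transporter family (chromosome 22, 32614451 to 32651334), was at 15.8 and 18.0 CPM in vehicle, 4.87 and 3.77 with Vem, 14.8 and 12.8 with RSV, and 1.44 and 1.57 with RSV+Vem (log2 fold change against vehicle -3.51, SE 0.20, edgeR adjusted p = 3.40e-09). The others were the mitochondrial transfer RNA MT-TQ and the transcripts AC018692.2, LINC00462 and RP1-257A7.4, of which AC018692.2 lost its call against Vem or RSV in DESeq2.

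The 3 named genes LCP1, RLBP1 and TFAP2A-AS1 lay between Vem and RSV in the combination. LCP1, an actin-bundling protein, was at 46.4 and 35.6 CPM in vehicle, 8.76 and 6.46 with Vem, 180 and 186 with RSV, and 41.9 and 41.9 with RSV+Vem, which was within the range of vehicle (log2 fold change 0.03, SE 0.13, edgeR adjusted p = 0.850, and -0.66 when scaled to the spike-ins). RLBP1, a retinoid-binding protein, was at 9.82 and 11.9 CPM in vehicle, 0.209 and 0.692 with Vem, 52.6 and 50.2 with RSV, and 6.92 and 6.41 with RSV+Vem, 0.70 below vehicle. TFAP2A-AS1, the antisense neighbour of TFAP2A, was at 6.12 and 4.81 CPM in vehicle, 23.0 and 25.9 with Vem, 2.47 and 1.73 with RSV, and 6.49 and 4.39 with RSV+Vem, and its difference from vehicle of 0.05 took the other sign when scaled to the spike-ins (-0.59) and without the second vehicle (-0.10) or the first RSV+Vem library (-0.31). LCP1, RLBP1 and TFAP2A-AS1 were chosen for their opposite changes under Vem and RSV alone, so that order is a description. For the combination itself, LCP1 and TFAP2A-AS1, like TYRP1 above, did not differ from vehicle by the test.

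**Figure D5:**
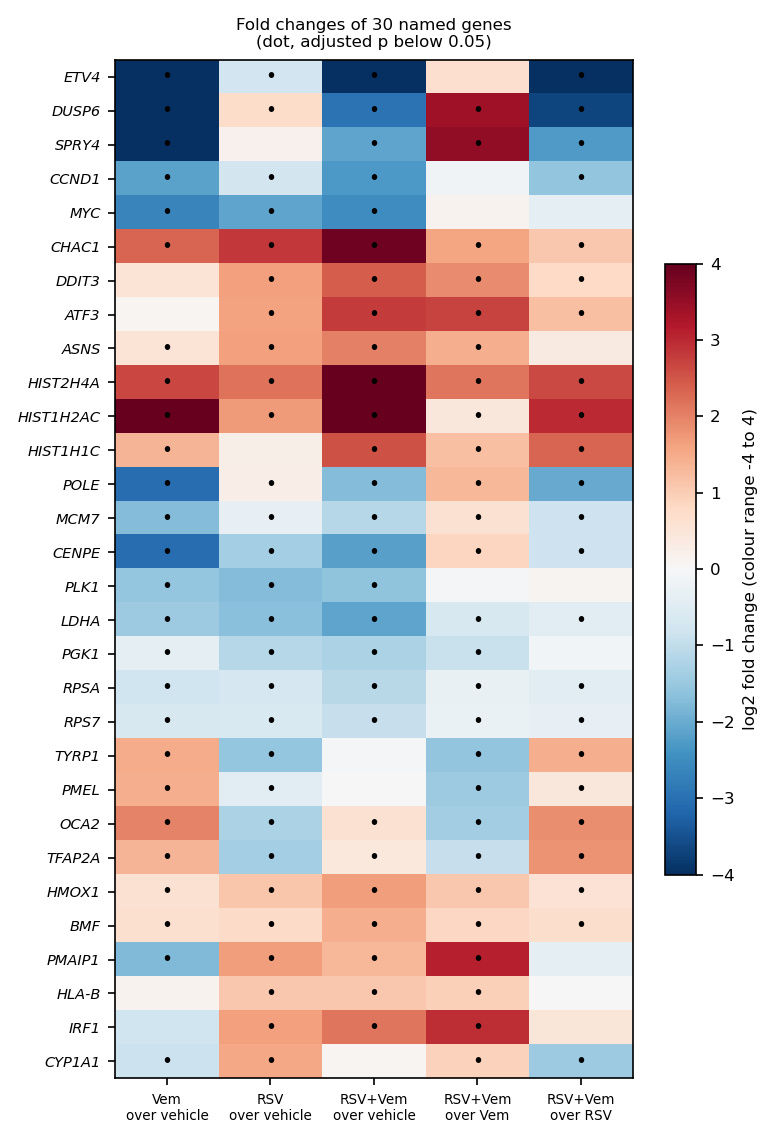
Log2 fold change of 30 genes (rows) in 5 comparisons (columns), with a colour range from -4 to 4 and a dot where the adjusted p was below 0.05. Against vehicle, RSV+Vem shows the ERK targets ETV4, DUSP6 and SPRY4 lower (-6.12, -2.96 and -2.10), CHAC1, DDIT3 and ATF3 higher (3.89, 2.43 and 2.80), and TYRP1 and CYP1A1 near 0 (-0.09 and 0.09, the latter -0.65 when scaled to the spike-ins). OCA2 and TFAP2A, slightly higher here (0.59 and 0.43), turn negative when scaled to the spike-ins (-0.089 and -0.25).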

How the data were processed

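Poly(A) mRNA libraries (TruSeq stranded mRNA) of 12 samples were sequenced as paired ends by the authors, aligned to hg19 with STAR 2.4.0a and counted per gene symbol with featureCounts of Subread 1.5.0-p3. The deposited table gives unnormalized read counts per library. It lists 56638 genes by symbol, and another 96 rows are added controls (92 from the ERCC set). The annotation release counted is not given in the sources used here, and positions are from a GENCODE annotation lifted to GRCh37. Replicates were not pooled. Depth ranged from 8378655 to 25076925 counts on genes per library, and no molecular identifiers are described, so counting intervals cover counting error only.

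Control sequences were removed, genes were kept with filterByExpr by group (16080), and all 12 libraries entered 1 quasi-likelihood model with TMM factors and a term per group, fitted with edgeR 4.0.16 under R 4.3.3 (6 residual degrees of freedom). Genes were called at a Benjamini-Hochberg adjusted p below 0.05 over all tested genes. The SE is the log2 fold change divided by the root of the F statistic. The fit was tested on simulated data.

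The gene lists and members were chosen with earlier results of these data known, and no list was tested as a set. Named genes were the 12 largest increases and decreases among called, non-overlapping genes whose higher group averaged 50 counts or more, the 5 largest margins beyond every other group, up to 4 called members per list, genes the study names, and the 3 clearest genes moved oppositely by Vem and RSV in each direction. Some genes that this rule names are not reported here. Other list members were named after their values were seen, as examples.

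Same-numbered libraries of vehicle and RSV+Vem had a correlation of deviations of -0.03, and of 15 pairs of groups 3 were above 0.1 and 1 below -0.1. The 3 were the pairs among groups given RSV (alone, with Vem, or with TCDD, an AhR agonist), including RSV with RSV+Vem at 0.149. The numbers were not used as a block in the main fit. With a replicate block, 1830 genes were higher and 2181 lower with RSV+Vem than with RSV. Alternatives were DESeq2 1.42.0, RLE factors, spike-in scaling, 2 other filters, a replicate block, only the libraries compared, a minimum log2 fold change of 1, and leaving out each library. Promoters are the first RefSeq window of each symbol (GRCh38.p14), and 10975 of the 16080 tested symbols matched. All motifs were searched on both strands and none of those printed contains another. Each motif was counted in every list, and only some of these counts are given. Figures were drawn with matplotlib 3.10.9.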

Additional observations from a re-analysis of the deposited data

How the results depend on the processing

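With 2 libraries per group, the second RSV+Vem library the shallowest of the series and the combination lowest in RIN, small changes and low genes are the least certain. Against vehicle, 3870 genes higher and 3992 lower became 273 higher when scaled to the spike-ins, 1452 and 960 at a log2 fold change of at least 1, and 2582 to 3331 and 2838 to 3513 when 1 library was left out. Against Vem, the counts were 337 higher and 54 lower with spike-ins, 1257 and 427 at the minimum fold change, and 2057 to 2374 and 2092 to 2286 with 1 library left out (2057 without the second Vem library). Against RSV, they were 19 and 464 with spike-ins, 359 and 544 at the minimum fold change, and 873 to 1490 and 1102 to 1723 with 1 library left out, where both lowest counts were without the first RSV+Vem library and 1153 were higher without the second RSV library. Genes beyond every other group were 116 higher in DESeq2, 4 higher and 1 lower with spike-ins, 52 and 15 at the minimum fold change, and 77 to 227 and 124 to 314 with 1 library left out (122 higher and 186 lower without the first Vem library, 104 and 185 without the second, 123 higher without the second RSV library, 77 and 124 without the first and 143 lower without the second RSV+Vem library). The replicate block gave 3844 higher and 4043 lower against vehicle, changed no call of a named gene, and is no evidence of pairing.

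When scaled to the spike-ins, log2 fold changes against vehicle reversed for TWIST1 (-0.13), TFAP2A (-0.25), DHCR7 (-0.013), MVD (-0.042), MT-ND1 (-0.076), SIRT5 (-0.031), SIRT2 (-0.12), OCA2 (-0.089), CYP1A1 (-0.65), TIPARP (-0.35), ARNT (-0.46), TFAP2A-AS1 (-0.59) and LCP1 (-0.66). With 1 library left out, CYP1A1 ranged from -0.069 (without the second RSV+Vem library) to 0.27, LCP1 from -0.14 (without the second vehicle library) to 0.23, and TFAP2A-AS1 from -0.31 (without the first RSV+Vem library; -0.10 without the second vehicle library) to 0.25. EGFR was 0.0030 with RLE factors and ranged from -0.65 to 0.24 with 1 library left out, the positive values being without the second vehicle or the second RSV+Vem library. The spike-in shift is the constructed cause of the first set, and the cause of the others was not tested. In DESeq2, 184 of 188 named-gene results kept their call. The median of the AP-1, EGR and MYC list against vehicle, -0.22 in the main fit, was 0.36 with at least 10 counts in every library.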
